A study of Homo sapiens with 9 samples.

Results

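The 10 transcripts described here encode secreted signals that are usually counted as part of the senescence-associated secretory phenotype (SASP). They are the cytokines IL6, IL1A, IL1B and LIF, the CXC chemokines CXCL1, CXCL2, CXCL3 and CXCL8, and the CC chemokines CCL2 and CCL5, chosen by name out of 61544 genes listed. The cells were HMC3, a line derived from human microglia by transfer of the SV40 large T antigen, and their RNA was sequenced in 9 libraries of polyadenylated RNA, with 3 libraries in each of 3 groups. Full dose SLO was 10 µM SBI-0206965, which inhibits ULK1, a kinase that starts autophagy, with 1 µM O-151, an inhibitor of the DNA glycosylase OGG1, and 1 µM Lopinavir, which blocks Lamin A maturation. SLO ½ held 5 µM SBI-0206965, 0.5 µM O-151 and 0.5 µM Lopinavir, and VEH cells received DMSO, the solvent, alone. All groups were of WT genotype, grew in the same serum-containing medium and were treated for 6 days. HMC3 is 1 cell line, and the labels do not say whether replicates were separate cultures, so that p-values measure the spread between these libraries, which may be technical.

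The SASP is the mixture of cytokines, chemokines, growth factors and proteases that cells release after they stop dividing for good. IL1A, acting at the cell surface, is regarded as an early trigger that drives NF-κB and C/EBPβ, and these in turn drive IL6 and CXCL8. Chemokines then draw leukocytes: CXCL1, CXCL2, CXCL3 and CXCL8 act on neutrophils through CXCR2, CCL2 on monocytes through CCR2, and CCL5 on T cells and monocytes. In brain, microglia are a main source of IL-1β and of several of these chemokines.

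Between 14834295 and 19674841 reads of each library fell on genes. The label of microglia was checked against 15 microglia markers, of which 11 had at most 10 reads in every library, and P2RY12, TYROBP, CD163 and C1QA had 0 reads throughout. By contrast, 14 fibroblast and pericyte markers, led by FN1, summed to 8900 to 9930 TPM (reads scaled to gene length and library size) in VEH libraries, 8020 to 8450 in those of SLO ½ and 7290 to 7530 in those of SLO. Without FN1 the other fibroblast and pericyte markers summed to 3330 to 3460, 3850 to 3930 and 3970 to 4150 TPM, the opposite order of groups. Of 18 markers of other leukocytes, endothelium and neural cells, 15 had at most 10 reads in every library. The share of reads on mitochondrial transcripts was 1.30% to 1.61% in VEH libraries, 2.30% to 2.86% at the lower dose and 2.51% to 3.12% at the higher dose. The part of these shifts in the results below was not tested. In bulk RNA, fewer cells carrying a transcript and less of it per cell cannot be told apart.

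The sequence before the start site is shown for the members in which a κB-type motif was found, since NF-κB is the best known regulator of this group. Sequences of 250 bases before the start site from RefSeq (GRCh38.p14) were at hand for IL6, IL1B, CXCL1, CXCL2, CXCL3 and CXCL8. LIF, CCL2 and CCL5 had no entry, and IL1A, which did not pass the expression filter described below, was not searched. The stretches below run 5′ to 3′ on the gene's strand from 160 bases before the start site to the base before it, and end earlier for IL6 and CXCL8, where exons of other annotated coding transcripts begin. Capitals mark the κB-type motif GGNNNTTCC, searched on both strands.
IL6, chr7:22727040-22727146, plus strand: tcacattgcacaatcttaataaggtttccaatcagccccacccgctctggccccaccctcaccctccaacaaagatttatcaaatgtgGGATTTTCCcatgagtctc
CXCL8, chr4:73740409-73740518, plus strand: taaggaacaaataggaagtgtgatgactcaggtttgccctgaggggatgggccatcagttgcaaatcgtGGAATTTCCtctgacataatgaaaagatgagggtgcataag
CXCL1, chr4:73869233-73869392, plus strand: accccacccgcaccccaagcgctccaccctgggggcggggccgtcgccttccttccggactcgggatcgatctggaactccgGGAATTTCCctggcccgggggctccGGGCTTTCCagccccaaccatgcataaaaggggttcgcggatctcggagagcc
CXCL2, chr4:74099196-74099355, minus strand: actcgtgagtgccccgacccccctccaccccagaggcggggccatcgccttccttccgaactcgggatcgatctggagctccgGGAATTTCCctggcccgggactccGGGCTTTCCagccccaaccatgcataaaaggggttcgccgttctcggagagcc
CXCL3, chr4:74038690-74038849, minus strand: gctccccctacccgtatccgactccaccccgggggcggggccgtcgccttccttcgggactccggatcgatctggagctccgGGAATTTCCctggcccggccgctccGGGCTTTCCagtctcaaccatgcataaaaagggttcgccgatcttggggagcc

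CXCL1, CXCL2 and CXCL3 carried the same pair of κB-type matches, GGAATTTCC and GGGCTTTCC, at nearly the same distances from the start site. The first lay at bases -78 to -70 in CXCL1 and CXCL3 and at -77 to -69 in CXCL2, and the second at -53 to -45 in each of them. CXCL8 shared the match GGAATTTCC, at -91 to -83, and IL6 had GGATTTTCC at -72 to -64. In all, 5 of the 6 windows held a κB-type match, and the IL1B window held none. Among the 35116 RefSeq promoter windows of the same 250 bases the share was 17.1%. The windows of CXCL1, CXCL2 and CXCL3 closely resemble one another, so the 5 are not independent cases. An AP-1 motif (TGANTCA) was found in the CXCL8 window alone, at -137 to -131, against 6.57% of all windows. A C/EBP-type motif (TTGCNNAA) stood in 3 windows, those of IL6, IL1B and CXCL2, against 9.05%. The interferon-stimulated response element core (GAAANNGAAA, found in 3.02% of all windows) was in 0 of the 6, and the TATA box (TATAAA on the gene's strand, 6.80% of all windows) was in that of CXCL8, at -31 to -26. A match is a stretch of letters and not a measured binding site.

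**Figure D1:**
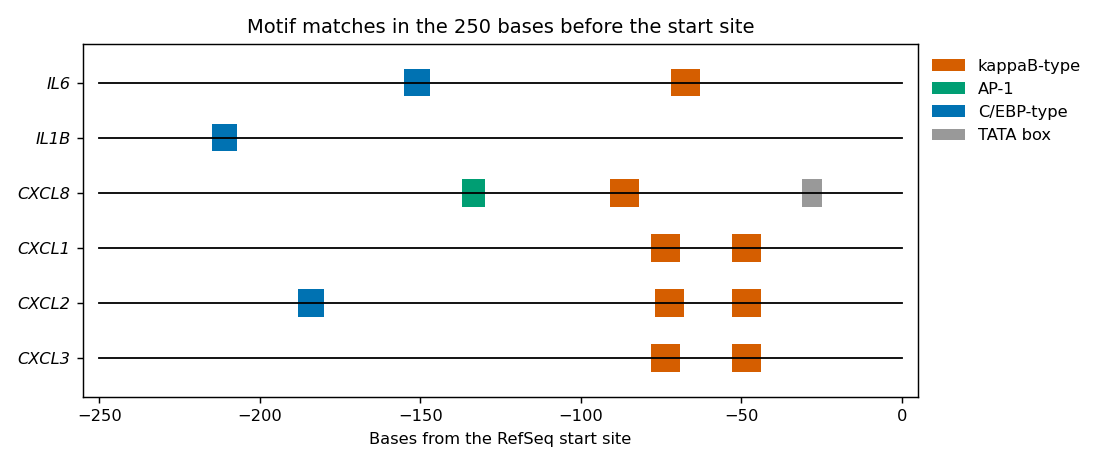
Motif matches in the 250 bases before the RefSeq start site of 6 members, with distance from the start site in bases on the x axis. CXCL1, CXCL2 and CXCL3 have 2 κB-type matches each at almost the same places, IL6 and CXCL8 have 1 each, and IL1B has none.

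By the coordinates of the files (GRCh38), the genes lie on chromosomes 2, 4, 7, 17 and 22. CXCL8 (chr4:73740519-73743716), CXCL1 (chr4:73869393-73871308), CXCL3 (chr4:74036589-74038807) and CXCL2 (chr4:74097040-74099196) stand together, IL1A (chr2:112773925-112784493) and IL1B (chr2:112829751-112836816) are 45258 bases apart, and CCL2 (chr17:34255274-34257208) and CCL5 (chr17:35871491-35880793) are farther from each other. IL6 is at chr7:22725884-22732002 and LIF at chr22:30240453-30246759. The coding sequences of CXCL1, CXCL2 and CXCL3 were 90.7% to 94.4% identical, and each of them was 52.5% to 54.1% identical to that of CXCL8. Of the 50-base stretches of their main transcripts, 5.33% (CXCL1), 10.1% (CXCL2) and 5.26% (CXCL3) also occurred in the others, and 17.0% of those of CCL5 occurred in other genes. Reads falling wholly in such stretches could match several places, and reads that did were not counted. How many reads of these genes were lost in this way was not tested. Genes on the opposite strand that overlap IL6, LIF and CCL5 had between 0 and 21 reads in any library.

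In VEH cells LIF, a cytokine of the IL-6 family that acts through LIFR and the shared subunit IL6ST (gp130), was by far the most abundant of the 10. On the TPM scale, which corrects for gene length and so allows levels of different genes to be compared, LIF stood at 30.0 TPM and CXCL8 followed at 7.92, IL6 at 4.10, CCL2 at 3.20, CXCL1 at 3.16, CXCL2 at 1.68, IL1B at 1.27 and CXCL3 at 0.745. IL1A (0.323 TPM) and CCL5 (0.322 TPM) were last. Neighbours in this order overlapped between libraries for CCL2 and CXCL1, and for each step from CXCL2 down to CCL5. The members' summed TPM was 51.95, 54.05 and 52.27 in the VEH libraries, and LIF made up 56.9% ± 2.18 (SD, n = 3) of it.

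With treatment the share of LIF fell and those of IL6, CXCL8 and CXCL1 grew, while the mean TPM of LIF itself did not fall. The summed level was 128.1, 129.4 and 126.2 TPM in the SLO ½ libraries and 115.2, 125.6 and 117.2 TPM in the SLO libraries, so that each treated library lay above each VEH library. The share of LIF in the sum was 28.1% ± 1.23 in SLO ½ and 28.6% ± 2.13 in SLO. The share of CXCL1 went from 5.98% ± 0.831 in VEH to 18.6% ± 1.03 and 16.3% ± 1.49, and that of IL6 from 7.79% ± 1.04 to 16.2% ± 1.41 and 20.3% ± 2.55. For CXCL8 the step was smaller, from 15% ± 1.24 to 19.4% ± 0.611 and 20.3% ± 2.72. CCL5 made up 0.613% ± 0.459 of the sum in VEH, 5.27% ± 0.785 at the lower dose and 3.15% ± 0.450 at the higher one. In SLO ½ the order was LIF (35.9 TPM), CXCL8 (24.9), CXCL1 (23.8), IL6 (20.8), CCL5 (6.73), IL1B (6.56), CCL2 (3.88), CXCL2 (2.82), CXCL3 (1.82) and IL1A (0.691), with overlap between CXCL8 and CXCL1, CCL5 and IL1B, CCL2 and CXCL2, and CXCL2 and CXCL3. In SLO it was LIF (34.2 TPM), IL6 (24.3), CXCL8 (24.2), CXCL1 (19.4), CXCL2 and CCL2 (4.25 each), CCL5 (3.74), IL1B (2.89), CXCL3 (1.70) and IL1A (0.490), with overlap between IL6 and CXCL8 and among CXCL2, CCL2 and CCL5.

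**Figure D2:**
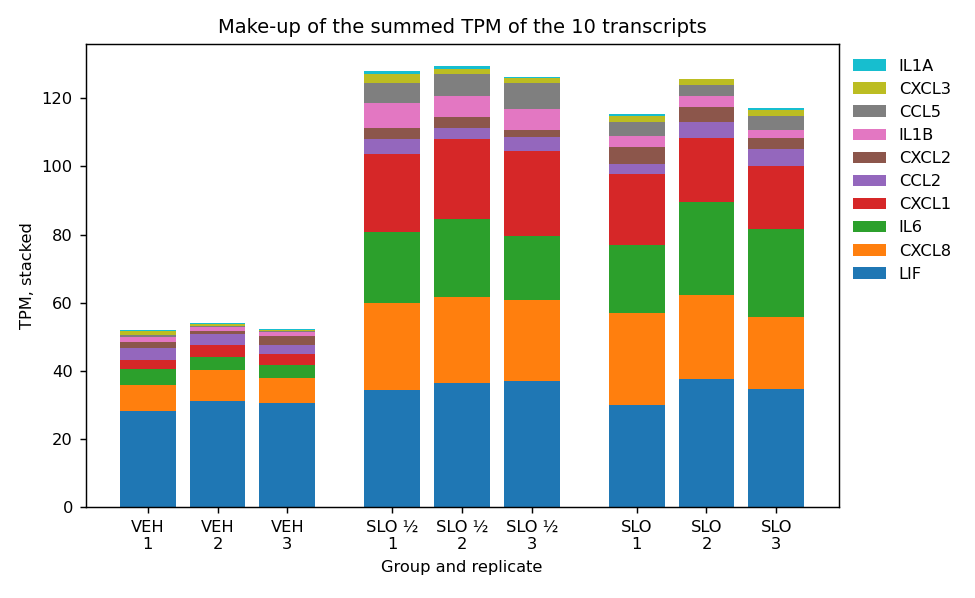
TPM of the 10 transcripts stacked for each of the 9 libraries (y axis, TPM; x axis, group and replicate). The VEH libraries sum to 51.95 to 54.05 TPM, LIF being the thickest layer, and the treated libraries to 115.2 to 129.4 TPM, with larger layers for IL6, CXCL8 and CXCL1.

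A member was taken as near zero in a group where all 3 of its libraries held at most 10 reads. By this limit IL1A was near zero in every group, and CXCL3 and CCL5 were near zero in VEH. IL1A had 2, 2 and 3 reads in VEH, 7, 7 and 2 in SLO ½ and 4, 1 and 5 in SLO. Its pooled reads, scaled to depth, were 2.21 times those of VEH in SLO ½ (95% interval for counting error only 0.861 to 6.36) and 1.48 times in SLO (0.507 to 4.57), and both intervals include no change. CXCL3 had 9, 5 and 3 reads in VEH, and CCL5 had 3, 1 and 1. Of the 10 members 9 passed the expression filter, which asked for about 0.609 CPM (reads scaled to library size) in at least 3 libraries. CXCL3 and CCL5 passed through treated libraries alone, with 0 VEH libraries above that level, and CXCL2 had 1 VEH library above it, so counts over the members that passed lean towards higher values in treated cells.

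SLO was compared with VEH to ask what the full dose does to these transcripts, and the values of each library are given below in CPM scaled by TMM factors. By edgeR's quasi-likelihood test, adjusted over 14727 genes by the Benjamini-Hochberg method with calls at an adjusted p below 0.05, 8 of the 9 tested members rose in SLO and 0 fell. CCL2 was the one without a call. With at least 10 reads asked of every library, which leaves out CXCL2, CXCL3 and CCL5, 5 members rose and 0 fell. Among all tested genes 32.9% rose and 32.1% fell in this comparison. The median log2 fold change of the 9 was 1.29, beside 0.014 over all tested genes. No member fell at an unadjusted p below 0.05 either, and DESeq2 and limma called 0 that fell.

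In SLO ½ against VEH, which asks the same of the lower dose, 7 of the 9 tested members rose and 0 fell, with 0 that fell at an unadjusted p below 0.05 and 0 by DESeq2 or limma. The background was 26.7% of genes that rose and 25.3% that fell. CXCL2 and CCL2 had no call. With at least 10 reads asked of every library, 5 members rose and 0 fell. The median log2 fold change of the members was 1.70, beside 0.015 over all tested genes. Both comparisons use the same 3 VEH libraries, so their results are not independent. In SLO against SLO ½ 0 members rose and 3 fell (IL1B, CXCL1 and CCL5), beside 20.8% and 20.3% of all tested genes. At an unadjusted p below 0.05, 0 members rose here, and DESeq2 and limma gave 0 too.

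**Figure D3:**
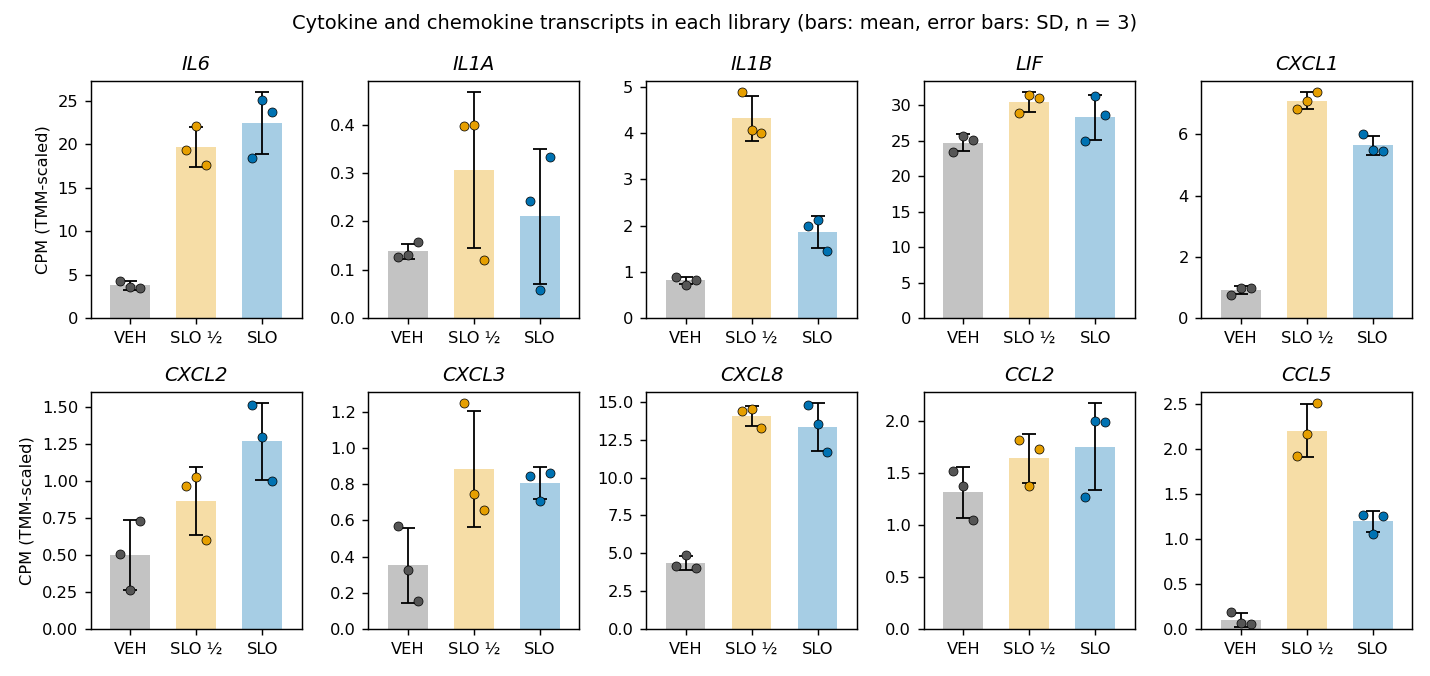
CPM of each of the 10 transcripts in the 3 groups (y axes linear from 0 and different for each gene; points, libraries; bars, means; error bars, SD, n = 3). IL6, CXCL1, CXCL8, IL1B and CCL5 stand above VEH in all 6 treated libraries, while IL1A and CCL2 overlap.

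IL6, the cytokine that signals through IL6R and IL6ST and drives fever and the acute phase response, rose at both doses. It had 68, 54 and 66 reads in VEH, 341, 386 and 294 in SLO ½ and 305, 427 and 357 in SLO. Every treated library was above every VEH library, and the doses overlapped. Its level was 3.77 ± 0.477 CPM (SD, n = 3) in VEH, 19.7 ± 2.25 at the lower dose and 22.4 ± 3.52 at the higher one. The log2 fold change was 2.39 (SE 0.133, adjusted p = 6.74e-15, edgeR) for SLO ½ and 2.58 (SE 0.131, adjusted p = 2.56e-16) for SLO, or 5.24-fold and 5.97-fold. The doses differed by a log2 fold change of 0.19 (SE 0.096, 95% interval -0.009 to 0.384, adjusted p = 0.122). Without SLO replicate 1 this difference was 0.31 and passed the test (adjusted p = 0.00815), as it did without SLO ½ replicate 2 (0.28, adjusted p = 0.0426), over a range from 0.00815 to 0.522 among the alternatives. IL6 varied between treated libraries by 11.4% and 15.7% of its mean, where counting error alone would give 5.42% and 5.25%.

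CXCL8 (IL-8), the main neutrophil attractant of the group, rose at both doses, with a difference between the doses that did not pass the test. Reads numbered 66, 74 and 77 in VEH, 254, 254 and 222 in SLO ½ and 245, 230 and 176 in SLO, again without overlap between VEH and treated libraries. Means were 4.36 ± 0.442, 14.1 ± 0.680 and 13.4 ± 1.57 CPM. The log2 fold change against VEH was 1.70 (SE 0.117, adjusted p = 7.71e-13) for SLO ½ and 1.63 (SE 0.119, adjusted p = 8.59e-13) for SLO. Between the doses it was -0.07 (SE 0.0948, 95% interval -0.267 to 0.121, adjusted p = 0.571).

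CXCL1, CXCL2 and CXCL3 are close paralogs that act on the same receptor, and they were measured at very different depth. CXCL1 had 12, 15 and 19 reads in VEH, 120, 124 and 123 in SLO ½ and 99, 93 and 82 in SLO. All treated libraries were higher than VEH, and all SLO libraries were lower than those of SLO ½. The means were 0.913 ± 0.131, 7.09 ± 0.277 and 5.64 ± 0.306 CPM, with a 7.67-fold rise in SLO ½ (log2 2.94, SE 0.179, adjusted p = 5.11e-14) and a 6.11-fold rise in SLO (log2 2.61, SE 0.188, adjusted p = 6.62e-13). From SLO ½ to SLO it fell by 0.33 on the log2 scale (SE 0.123, adjusted p = 0.033). This call between doses was lost in 8 of 19 alternatives, among them DESeq2 (adjusted p = 0.145, range 0.0261 to 0.145) and leaving out replicate 2 or replicate 3 of either dose.

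CXCL2 had 8, 4 and 14 reads in VEH, 17, 18 and 10 in SLO ½ and 25, 22 and 15 in SLO. The SLO libraries were above those of VEH, and SLO ½ overlapped with both. Its means were 0.501 ± 0.234, 0.865 ± 0.232 and 1.27 ± 0.259 CPM. The rise in SLO passed the test (log2 1.29, SE 0.344, adjusted p = 0.0017), and SLO ½ did not (log2 0.74, 95% interval -0.018 to 1.495, adjusted p = 0.0955), although it did without VEH replicate 3 (log2 1.15, adjusted p = 0.0371, range 0.0371 to 0.346). The difference between doses was 0.55 on the log2 scale (95% interval -0.072 to 1.175, adjusted p = 0.154).

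CXCL3 had the 9, 5 and 3 reads given above in VEH, 22, 13 and 11 in SLO ½ and 14, 12 and 13 in SLO. The treated libraries were all higher, by a margin of few reads. Its means were 0.352 ± 0.208, 0.884 ± 0.319 and 0.806 ± 0.0868 CPM, and the log2 fold change was 1.37 (SE 0.411, adjusted p = 0.00636) in SLO ½ and 1.22 (SE 0.426, adjusted p = 0.0133) in SLO. CXCL3 passed the filter through treated libraries alone, so these calls are no support. Without VEH replicate 3, the library with 3 reads, both calls were lost (log2 0.96, adjusted p = 0.0693, and 0.82, adjusted p = 0.116), and that of SLO ½ was lost also without SLO ½ replicate 1 (1.03, adjusted p = 0.0698). Over the alternatives the adjusted p ranged from 0.00199 to 0.0841 in SLO ½ and from 0.00362 to 0.116 in SLO. The doses differed by -0.14 on the log2 scale (95% interval -0.840 to 0.555, adjusted p = 0.770).

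IL1B, which encodes the pro-form of IL-1β that caspase-1 cuts, was higher in SLO ½ than in SLO. It had 14, 11 and 16 reads in VEH, 86, 71 and 67 in SLO ½ and 33, 36 and 22 in SLO. The groups formed separate ranges, with VEH lowest and SLO ½ highest. The means were 0.816 ± 0.0852, 4.32 ± 0.489 and 1.86 ± 0.349 CPM. The rise was 5.25-fold in SLO ½ (log2 2.39, SE 0.218, adjusted p = 2.96e-10) and 2.28-fold in SLO (log2 1.19, SE 0.262, adjusted p = 0.000243), and from SLO ½ to SLO it fell by 1.20 on the log2 scale (SE 0.184, adjusted p = 4.69e-06). These calls held in all 19 alternatives of each comparison.

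CCL5 (RANTES) showed the same order of groups. Against 3, 1 and 1 reads in VEH there were 34, 38 and 42 in SLO ½ and 21, 18 and 19 in SLO. The groups did not overlap. Its means were 0.103 ± 0.0762, 2.21 ± 0.294 and 1.20 ± 0.120 CPM. VEH gave 5 reads in all, so the size of the change is known only roughly: the pooled reads, scaled to depth, were 22.1 times those of VEH in SLO ½ (95% interval for counting error only 9.18 to 69.3) and 12.0 times in SLO (4.85 to 38.3). CCL5 passed the filter through treated libraries alone, so its calls against VEH (edgeR, adjusted p = 3.4e-10 and 1.68e-07) are no support. From SLO ½ to SLO CCL5 fell by 0.88 on the log2 scale (SE 0.236, adjusted p = 0.00352). The last call was lost with limma on log2(TPM + 0.1) (adjusted p = 0.0529, range 0.00255 to 0.0529).

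LIF, the most abundant member, changed little. It had 369, 391 and 479 reads in VEH, 509, 550 and 517 in SLO ½ and 411, 531 and 431 in SLO. Scaled to depth, these are 24.7 ± 1.15, 30.4 ± 1.36 and 28.3 ± 3.21 CPM. The SLO ½ libraries were above VEH, and those of SLO overlapped with both. LIF rose 1.23-fold in SLO ½ (log2 0.30, SE 0.0734, adjusted p = 0.00104) and 1.14-fold in SLO (log2 0.19, SE 0.0748, adjusted p = 0.0246). The second call was lost in 8 of 19 alternatives, among them DESeq2 (adjusted p = 0.0585) and leaving out VEH replicate 1, SLO replicate 2 or SLO replicate 3. Without SLO replicate 2 the log2 fold change was 0.11 (adjusted p = 0.225), over a range of adjusted p from 0.00206 to 0.225. Between the doses LIF differed by -0.11 on the log2 scale (95% interval -0.254 to 0.042, adjusted p = 0.254).

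CCL2 (MCP-1), the monocyte attractant, had 24, 21 and 20 reads in VEH, 32, 24 and 29 in SLO ½ and 21, 34 and 30 in SLO. The 3 groups overlapped. Its means were 1.32 ± 0.246, 1.64 ± 0.237 and 1.76 ± 0.420 CPM, and neither dose passed the test. The log2 fold change was 0.34 in SLO ½ (95% interval -0.185 to 0.855, adjusted p = 0.279) and 0.43 in SLO (-0.091 to 0.949, adjusted p = 0.141), so that a rise of up to 1.93-fold in SLO lies within the interval. Without SLO replicate 1 the value in SLO was 0.62 and passed (adjusted p = 0.0442, range 0.0442 to 0.425). The doses differed by 0.09 (95% interval -0.398 to 0.585, adjusted p = 0.785). IL1A was not tested with the others. With no filter its log2 fold change was 1.09 in SLO ½ (95% interval -0.236 to 2.413, adjusted p = 0.303) and 0.52 in SLO (-0.943 to 1.985, adjusted p = 0.658).

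**Figure D4:**
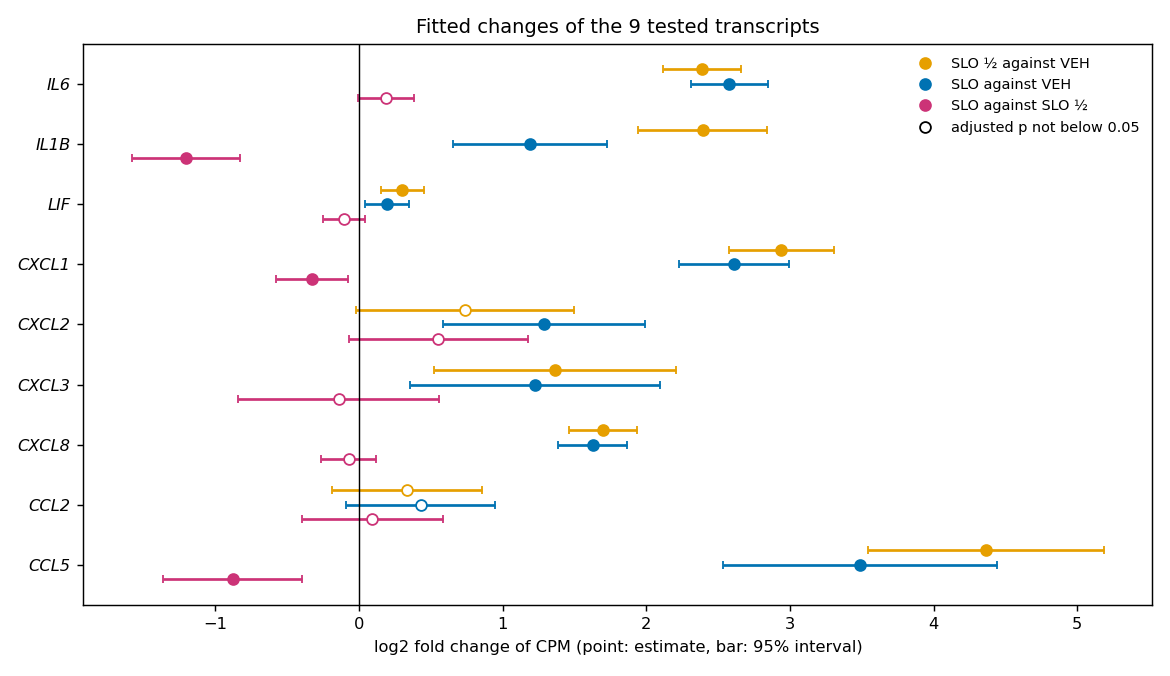
Log2 fold change of CPM of the 9 tested transcripts (x axis; points, edgeR estimates; bars, 95% intervals) in SLO ½ against VEH, SLO against VEH and SLO against SLO ½; open points have an adjusted p of 0.05 or more. Between the doses, the intervals of IL1B, CXCL1 and CCL5 lie wholly left of 0, and the CCL2 intervals all span 0.

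Over the 9 libraries, likeness of pattern was measured as the root mean square difference of log2 CPM after each gene was centred on its mean, and it is a description without a test. Nearest to IL6 were FAS, at 0.143, and CRYAB, at 0.166. FAS had 4.0 CPM in VEH, 19.5 at the lower dose and 22.9 at the higher one. Nearest to CXCL8 were PLAU (0.113) and NID2 (0.120), to CXCL1 TRIM22 (0.214) and SYNPO2 (0.239), and to LIF MAPK12 (0.0466) and COL27A1 (0.0532). Unlike CXCL1, TRIM22 (38.9 CPM in SLO ½ and 42.5 in SLO) and SYNPO2 (12.5 and 13.1 CPM) were not lower at the higher dose. IL1B was nearest to SAMD9L, at 0.190, and DDX60, at 0.234, which had their highest levels in SLO ½ as well, SAMD9L with 4.51, 25.3 and 12.0 CPM and DDX60 with 7.75, 31.8 and 14.1 CPM. CCL5 was nearest to IFIT2 (0.216), at 5.53, 50.4 and 32.4 CPM, and to CEACAM1 (0.280). For the members with few reads the nearest genes were LRP11 (0.221) and LHFPL4 (0.228) for CXCL2, PTCHD4 (0.210) and PLEKHB1 (0.236) for CXCL3, and PLEKHM1P1 (0.119) and ZNF334 (0.135) for CCL2. Among members the nearest pair was LIF and CCL2 (0.226), then IL6 and CXCL1 (0.333), and the farthest was LIF and CCL5 (1.37).

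**Figure D5:**
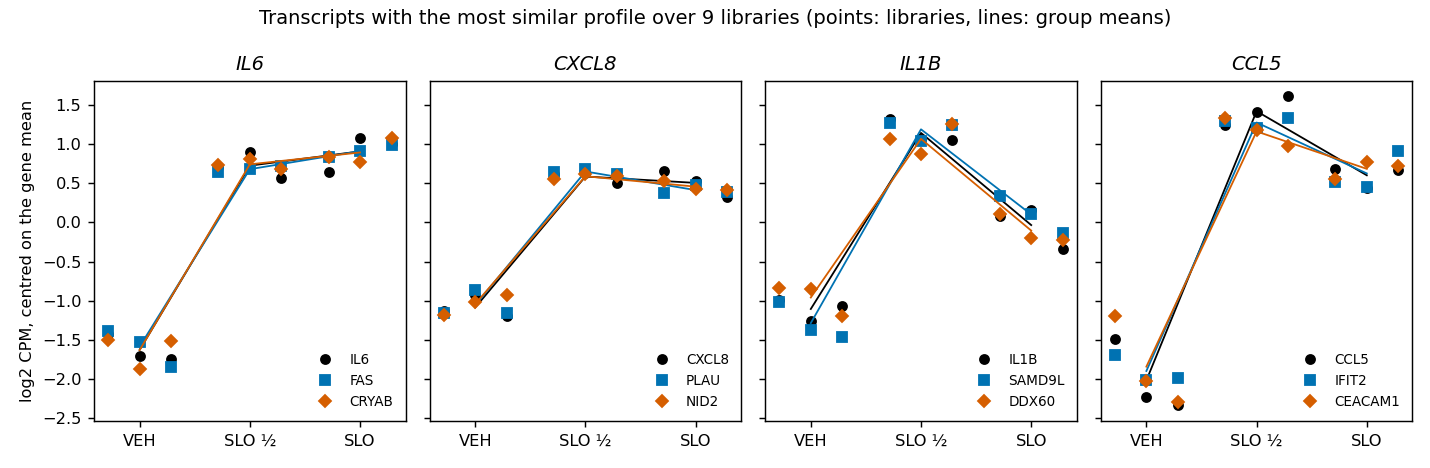
Log2 CPM, centred on each gene's mean over 9 libraries, of IL6, CXCL8, IL1B and CCL5 (black circles) and the 2 transcripts nearest to each (points, libraries; lines join group means). In the IL6 and CXCL8 panels the step from VEH to SLO ½ is far larger than that from SLO ½ to SLO, while IL1B and CCL5 with their neighbours peak in SLO ½.

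Genes around these signals were taken from lists by role, and their counts are descriptions. For every list, the shares over all tested genes stand beside them: 32.9% rose and 32.1% fell in SLO against VEH. In SLO ½ against VEH 26.7% rose and 25.3% fell, and between the doses 20.8% rose and 20.3% fell. In the IL-6 family list, 15 of 17 genes were tested, of which 8 rose and 5 fell in SLO against VEH (median log2 fold change 0.24), 4 rose and 3 fell in SLO ½ against VEH (0.06), and 7 rose and 4 fell between the doses (0.12). SOCS1, counted as risen in SLO and between the doses, had 0 VEH, 1 SLO ½ and 3 SLO libraries above the filter level, so its calls are no support. The smallest p-values in SLO belonged to STAT3, the transcription factor downstream of gp130, which rose from 180 ± 6.28 CPM to 234 ± 7.64 (SLO ½) and 273 ± 4.43 (SLO; log2 0.60, adjusted p = 1.38e-13), to OSMR, a receptor for oncostatin M, which fell from 242 ± 11.8 to 174 ± 5.87 and 148 ± 3.01 CPM (log2 -0.71, adjusted p = 1.09e-14), and to IL11. This other gp130 cytokine was 46.0 ± 2.31 CPM in VEH, rose to 53.7 ± 2.36 in SLO ½ (adjusted p = 0.00144) and was lower than VEH in SLO, at 27.2 ± 1.39 (log2 -0.76, adjusted p = 7.32e-12). The receptors of IL6 and LIF were looked up after their values were seen. IL6ST, at 460, 550 and 562 CPM in the same order of groups, rose at both doses (adjusted p = 1.12e-05 and 1.22e-06), IL6R had 4.62, 4.02 and 4.20 CPM with no call, and LIFR fell in SLO ½ (63.9 to 48.2 CPM, adjusted p = 3.19e-07) and rose in SLO (70.6 CPM, adjusted p = 0.0161).

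In the IL-1 family list 16 of 27 genes were tested, of which 8 rose and 4 fell in SLO (median 0.29), 10 rose and 1 fell in SLO ½ (0.40), and 3 rose and 5 fell between the doses (-0.10). IL18, which caspase-1 also matures, rose from 2.20 ± 0.527 CPM in VEH to 11 ± 0.489 (SLO ½) and 10.7 ± 1.20 (SLO; log2 2.31 and 2.28, adjusted p = 1.52e-13 and 7.82e-14). IL1RAP, the co-receptor of IL-1, rose from 23.2 ± 0.689 to 33.4 ± 2.35 and 47.7 ± 0.585 CPM (adjusted p = 7.84e-08 and 9.59e-15), and the kinase IRAK1, at 132 CPM in both VEH and SLO ½, fell to 102 ± 1.41 in SLO (adjusted p = 1.28e-08). Chosen after its values were seen, CASP1, which encodes caspase-1, rose from 0.466 ± 0.103 CPM to 1.70 ± 0.344 and 1.61 ± 0.225 (adjusted p = 8.96e-06 and 1.37e-05), and it passed the filter through treated libraries alone. The natural antagonist gene IL1RN had 0 reads in every library.

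Other chemokines were mostly near zero, and 26 of 31 had at most 10 reads in every library. Of the 5 tested, 2 rose and 1 fell in SLO (median 0.61), 3 rose and 1 fell in SLO ½ (0.80), and 1 rose and 3 fell between the doses (-0.84). CXCL5, which lies 37912 bases from CXCL3, rose from 1.10 ± 0.248 CPM to 4.84 ± 0.363 (SLO ½) and 2.68 ± 0.496 (SLO; adjusted p = 7.37e-10 and 1.75e-05) and fell between the doses (log2 -0.84, adjusted p = 0.000189), as CXCL1 did. CCL26 rose in SLO ½ (0.894 to 1.56 CPM, adjusted p = 0.0288) and had 0.598 CPM in SLO with no call against VEH. Another 2 are in the counts above but passed the filter only through the group in which they were highest, so their calls are no support: CCL11, at 0.240, 0.948 and 0.363 CPM in VEH, SLO ½ and SLO, and CX3CL1, the ligand of the microglial receptor CX3CR1, at 0.302, 0.482 and 0.945 CPM. CXCL16 fell at both doses (6.21 to 4.07 and 3.54 CPM, adjusted p = 0.00218 and 0.000105).

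The chemokine receptors were mostly near zero in these cells. Of 23 chemokine receptors 19 had at most 10 reads in every library, CXCR1 and CCR2 had 0, and CXCR2 had at most 2. Of the 3 tested, 2 rose and 0 fell at either dose (median 2.00 in SLO and 1.78 in SLO ½), and 1 rose and 0 fell between the doses (0.22). CXCR4 rose from 0.466 ± 0.186 CPM to 1.66 ± 0.197 and 1.92 ± 0.340 (adjusted p = 2.2e-05 and 1.62e-06), with 1 VEH library above the filter level. The scavenging receptor ACKR3, at 0.0612 ± 0.0661, 0.328 ± 0.0608 and 1.08 ± 0.162 CPM, passed the filter through the SLO libraries alone, so its calls are no support, and CCR10, at 0.540, 0.787 and 0.677 CPM, had no call. Of 21 other inflammatory cytokines 17 had at most 10 reads in every library, TNF among them at 0.0348, 0.191 and 0.389 CPM. Of the 4 tested, 2 rose and 1 fell in SLO (median 0.69), 2 rose and 0 fell in SLO ½ (0.76), and 0 rose and 1 fell between the doses (-0.18). CSF1, the growth factor of macrophages and microglia, rose from 5.03 ± 0.546 CPM to 12.6 ± 0.643 and 12.4 ± 0.308 (adjusted p = 3.01e-11 and 1.65e-11). IL32 rose from 1.57 ± 0.523 to 7.87 ± 0.639 and 4.76 ± 1.03 CPM (adjusted p = 2.19e-11 and 7.79e-08), with a fall between the doses (log2 -0.71, adjusted p = 0.000308). IL15 fell in SLO (5.51 to 4.18 CPM, adjusted p = 0.0206) and IL12A, at 2.50, 2.87 and 2.62 CPM, had no call.

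Of 30 regulators of cytokine genes, which hold NF-κB, AP-1 and C/EBP factors and proteins that destabilize or protect cytokine mRNA, 29 were tested. In SLO 10 rose and 14 fell (median -0.12), in SLO ½ 9 rose and 6 fell (0.07), and between the doses 6 rose and 12 fell (-0.12). ATF3, a stress-induced factor that can restrain cytokine genes, rose from 11.8 ± 0.904 CPM to 25.0 ± 2.48 and 41.2 ± 2.98 (adjusted p = 2.19e-11 and 1.97e-17). FOSL1, an AP-1 subunit, was at 108 ± 7.73 CPM in VEH and 113 ± 2.33 in SLO ½ and fell to 56.8 ± 6.42 in SLO (adjusted p = 6.78e-14). HNRNPD (AUF1), which binds AU-rich elements of mRNA, fell from 543 ± 14.4 to 404 ± 6.20 and 336 ± 6.12 CPM (adjusted p = 1.93e-10 and 2.05e-15).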

How the data were processed

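The authors made libraries of polyadenylated RNA with the KAPA RNA HyperPrep kit. Per the labels, Trimmomatic 0.38, STAR 2.7.1a and the build GRCh38 were used. The deposited gene counts are whole numbers of reads without normalization, and the deposited TPM values were scaled by the authors for gene length and library size, with the lengths not given in the sources used here. Summary lines that name no gene were left out: 0.883% to 0.984% of reads were unmapped, 7.16% to 8.52% matched several places, 5.54% to 8.38% lay outside genes and 3.03% to 3.26% were ambiguous.

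The tests were run with edgeR 4.0.16 (R 4.3.3). Its filterByExpr, at a smallest count of 10, left 14727 of the 32299 genes with a read. Libraries were scaled by TMM (0.968 to 1.035) and fitted in a quasi-likelihood model of 3 groups over 9 libraries. P-values were adjusted by the Benjamini-Hochberg method over all tested genes of each of the 3 comparisons, with calls below 0.05. Group levels in CPM are given as mean and SD. Likeness of pattern used a prior count of 2. The fit was tested on simulated data. Intervals on pooled reads are exact 95% Poisson-based ones and cover counting error only. No pair of replicates agreed within sampling noise (chi-square per degree of freedom 1.77 to 4.17). Sample groups were taken from titles.

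The members, lists and alternatives were chosen with earlier results of these data known. Named genes were every member, in each list those with the 3 smallest p-values in SLO against VEH and all tested ones of lists with at most 6, and the 2 nearest in pattern to each tested member; exceptions are named in the text. Some genes of the lists are not reported here. Alternatives were DESeq2 1.42.0, other scaling and filters, a fit of 2 groups alone, a replicate block, limma 3.58.1 on log2(TPM + 1) or log2(TPM + 0.1), and each library left out. Motifs were searched in RefSeq promoters of GRCh38.p14, and coding identity and shared 50-base stretches used MANE Select transcripts of GENCODE v44, whose coordinates equal those of the files for all 10 genes.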

Additional observations from a re-analysis of the deposited data

How the results depend on the processing

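Over 27 log2 fold changes and 504 alternative values, 477 kept their side of the threshold, 23 were no longer called, 4 became called and 0 called values reversed. Of the 477, 5 had the other sign, all in differences between the doses that were not called: CCL2 (-0.023 to -0.001 in 3 alternatives), CXCL3 (0.19) and CXCL8 (0.008). With at least 10 counts in every library 5 members rose in SLO against VEH in place of 8, since CXCL2, CXCL3 and CCL5 were then not tested. With limma on log2(TPM + 0.1) 1 member (IL1B) fell from SLO ½ to SLO in place of 3. Leaving out each library in turn gave 0 to 1 members that rose from SLO ½ to SLO, the one being IL6, 7 to 9 that rose in SLO against VEH, 6 to 7 in SLO ½ against VEH and 2 to 3 that fell between the doses. LIF in SLO ½ also lost its call with limma on unfiltered TPM (log2 0.25, adjusted p = 0.059, over a range from 0.000263 to 0.059), as CXCL3 did at both doses. Same-numbered libraries deviated together by correlations of 0.003 to 0.087. For replicate 2 these were above the best correlation with another number in each comparison: 0.045 against -0.011 (SLO and VEH), 0.016 against -0.005 (SLO ½ and VEH) and 0.087 against -0.042 (both doses). Whether same-numbered libraries share a batch was not tested. With the replicate block, 8 members rose in SLO, 7 in SLO ½ and 3 fell between the doses, as without it. Depth limits IL1A, CXCL3 and CCL5 most. The fitted log2 fold change of CCL5 over the alternatives lay between 1.85 and 4.19 for SLO and between 2.56 and 5.07 for SLO ½. The low ends came from limma on log2(TPM + 1), where the added 1 exceeds the VEH level of 0.322 TPM and shrinks the change. Leaving out each VEH library in turn gave 3.14 to 4.19 for SLO and 4.01 to 5.07 for SLO ½.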
